A study of Homo sapiens with 15 samples.

Results

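The 9 genes described here encode enzymes that add a sugar to a lipid or to a glycan. They are the glycolipid enzymes UGCG, A4GALT and B3GALNT1, the sialyltransferases ST3GAL1, ST3GAL2, ST3GAL4 and ST3GAL5, and the fucosyltransferases FUT8 and FUT11. They were taken by symbol from a table of 59608 genes, and all 9 were among the 13561 genes with a mean normalized count of at least 10 that entered the tests. They count as selected on the normalized counts and fold changes of these same libraries, which were known when the 9 were named, so their values and counts are given as a description, without p-values.

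The cells were MDA-MB-231, a triple-negative human breast cancer line, grown in dishes. DMSO at 0.1% (the vehicle control) or ZJ-101 at 0.5, 5, 50 or 500 nM was applied for 6 h, and each of the 5 groups had 3 biological replicates. ZJ-101 is a synthetic small molecule modelled on superstolide A, a macrolide found in a sponge. RNA with a poly-A tail was sequenced, and a normalized count is the number of read pairs on a gene divided by the size factor of its library. The time of 6 h was chosen by the study to catch transcripts that respond ahead of the change in cell shape. All 4 doses were compared with the same 3 DMSO libraries, so these comparisons are not independent of each other. In bulk RNA, fewer cells that express a gene and less RNA per cell cannot be told apart.

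Each library held between 12415519 and 15284762 reads on genes, and mitochondrial genes took 0.889% to 2.06% of the reads. One library stood apart, 0.5 nM replicate 2. The chi-square of its reads against the other two of its group, divided by the degrees of freedom, was 11.1 and 16.5, and that of all other pairs within a group was 2.04 to 6.27. Of the markers checked, VIM, CD44, AXL and CAV1, genes of mesenchymal cells, were abundant. Of 8 genes listed for the check as low in this line, ESR1, the estrogen receptor, was at 0 in DMSO and PGR at 14 normalized counts. The others were detected, CDH1 at 196, EPCAM at 293, GATA3 at 144, ERBB2 at 1226, and the keratins KRT8 and KRT18 at 12111 and 4399. Of 8 markers of other cell types, CD3E, NEFL and PAX2 were at 0 in DMSO, and PTPRC, MYL1 and ALB were at 1.65 or less. PECAM1, an endothelial marker, had 256 in DMSO and 216 at 500 nM, and CD14, a monocyte marker, had 27.8 and 10.5. Their part in the results was not tested.

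Glycosphingolipids are built on ceramide in the Golgi. UGCG, glucosylceramide synthase, adds the glucose that starts most of them, and a galactose then gives lactosylceramide, at which the pathway branches. A4GALT adds galactose to lactosylceramide and makes Gb3, the lipid that Shiga toxin binds, and B3GALNT1 extends Gb3 to globoside. ST3GAL5, GM3 synthase, adds sialic acid to the same lactosylceramide and opens the ganglioside branch. The other ST3GAL enzymes cap galactose with sialic acid, ST3GAL1 mainly on O-glycans of proteins, ST3GAL2 also on glycolipids, and ST3GAL4 on glycans of proteins. FUT8 puts the core fucose on N-glycans, and FUT11 belongs to the fucosyltransferases of the endoplasmic reticulum that modify proteins.

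The promoters of the enzymes at the branch point are shown because A4GALT and ST3GAL5 fell at the same doses while UGCG did not. RefSeq promoter windows, 250 bases before to 50 after a transcript start on GRCh38.p14, were found for 6 of the 9 genes. The first window listed for each gene is printed 5′ to 3′ on the strand of the gene, with matches to the searched motifs in capitals. The A4GALT window is chr22:42720821-42721120 on the minus strand, the ST3GAL5 window is chr2:85888941-85889240 on the minus strand, and the UGCG window is chr9:111896564-111896863 on the plus strand.
A4GALT: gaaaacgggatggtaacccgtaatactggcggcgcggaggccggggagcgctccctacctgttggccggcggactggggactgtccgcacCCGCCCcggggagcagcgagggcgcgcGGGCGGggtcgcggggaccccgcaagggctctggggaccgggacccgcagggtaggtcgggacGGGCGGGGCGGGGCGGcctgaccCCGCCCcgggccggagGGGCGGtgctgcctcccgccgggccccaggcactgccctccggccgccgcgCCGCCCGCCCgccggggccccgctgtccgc
ST3GAL5: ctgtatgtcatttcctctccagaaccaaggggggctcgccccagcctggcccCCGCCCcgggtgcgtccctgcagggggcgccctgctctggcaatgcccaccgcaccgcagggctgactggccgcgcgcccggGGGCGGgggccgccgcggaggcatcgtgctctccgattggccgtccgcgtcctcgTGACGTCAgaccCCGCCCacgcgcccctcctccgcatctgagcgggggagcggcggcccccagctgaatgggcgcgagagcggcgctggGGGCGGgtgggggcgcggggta
UGCG: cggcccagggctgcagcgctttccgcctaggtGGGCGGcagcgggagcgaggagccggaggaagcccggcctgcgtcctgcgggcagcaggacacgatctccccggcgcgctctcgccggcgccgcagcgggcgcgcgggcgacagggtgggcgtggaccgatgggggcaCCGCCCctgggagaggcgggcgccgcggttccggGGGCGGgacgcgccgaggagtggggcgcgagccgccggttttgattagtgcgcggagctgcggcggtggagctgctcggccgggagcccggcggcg

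All 3 windows hold the GC box GGGCGG, an SP1 element, on one strand or the other, which 45.0% of all 35116 promoter windows also hold. A4GALT has 9 matches, some of them overlapping, ST3GAL5 has 4 and UGCG has 3. The ST3GAL5 window also holds TGACGTCA, the cAMP response element, starting 61 bases before the transcript start, and 1.85% of all windows hold it. The searched elements for heat shock (the HSE, a facing pair of GAA repeats), the endoplasmic reticulum stress response (known as ERSE, and TGACGTGG), Golgi stress (ACGTGGC), lysosomal genes (TCACGTGA) and AP-1 (TGANTCA) had no match in these 3 windows on either strand. Over all 17 windows of the 6 genes, the heat-shock and Golgi stress elements each matched in 1 window, both times of ST3GAL5 and not the one printed, and 6.71% and 3.22% of all windows hold them. AP-1 matched in 1 window, of FUT8, and 7.71% of all windows hold it. The cAMP response element matched in 2 of the 17 windows, both of ST3GAL5, and the GC box in 12. The windows were rich in G and C, at 81.0% for A4GALT, 76.3% for ST3GAL5 and 79.0% for UGCG, where the median of all windows was 58.7%. A match is a string of letters and was not tested as a binding site.

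Per kilobase of exon, the level in DMSO was highest for UGCG, at 922 ± 26.9 normalized counts (SD, n = 3), and next for FUT8, at 569 ± 3.18. FUT11, A4GALT, ST3GAL1, B3GALNT1 and ST3GAL4 followed within 128 to 117 per kilobase. Neighbours among these 5 overlapped in their DMSO libraries, so the order of neighbours is not resolved. FUT11, at 125 to 132, was above B3GALNT1, at 119 to 123, in every DMSO library. ST3GAL2 stood at 98.7 ± 4.36, with no DMSO library in the range of ST3GAL4, and ST3GAL5 was lowest at 20.7 ± 0.925. Exons of all annotated transcripts were counted in the length, which is long for ST3GAL5 at 16300 bases, so its level per kilobase is a low estimate.

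A4GALT, the Gb3 synthase, fell at the higher doses. The gene lies on the minus strand of chromosome 22 from 42692121 to 42721298 (GRCh38). In the DMSO libraries it had 436, 419 and 398 normalized counts. It had 400, 442 and 428 at 0.5 nM and 402, 359 and 387 at 5 nM. It had 293, 319 and 280 at 50 nM and 274, 283 and 248 at 500 nM. Every library at 50 and 500 nM was thus below every library of DMSO and of the 2 lower doses, while the libraries at 0.5 and 5 nM overlapped those of DMSO. The log2 fold change against DMSO was 0.02 at 0.5 nM, -0.13 at 5 nM, -0.49 at 50 nM and -0.64 at 500 nM, with a standard error of 0.07. The comparisons at 50 and 500 nM passed the threshold, an adjusted p of 0.05 over all tested genes. At 500 nM, 64.3% of the DMSO mean was left. Between neighbouring doses, the step from 5 to 50 nM passed, at -0.36 ± 0.07 (SE) on the log2 scale.

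UGCG, which makes the glucosylceramide that A4GALT and ST3GAL5 depend on, took another course. It lies on the plus strand of chromosome 9 from 111896814 to 111935369. Its normalized counts were 4088, 4334 and 4206 in DMSO. They were 3779, 3490 and 3613 at 0.5 nM and 3501, 3562 and 3532 at 5 nM, all below the DMSO libraries. They were 4336, 4696 and 4514 at 50 nM and 4572, 4794 and 4419 at 500 nM, all above them. The log2 fold change was -0.21 at 0.5 nM and -0.25 at 5 nM, both past the threshold, with a standard error of 0.04. At 50 nM it was 0.10 and at 500 nM 0.13, and neither passed. The step from 5 to 50 nM, 0.35 ± 0.04 (SE), passed in the upward direction. The UGCG value at 0.5 nM no longer passed when any 1 of the 3 DMSO libraries was left out, and without 0.5 nM replicate 2 it was -0.19 and passed. The value at 500 nM passed in 7 of 26 alternative analyses, among them the one without 0.5 nM replicate 2.

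B3GALNT1, globoside synthase, sits on the minus strand of chromosome 3 from 161083883 to 161105411. It had 926, 949 and 963 normalized counts in DMSO and was below these in each treated library. The values were 818, 873 and 824 at 0.5 nM, 794, 767 and 797 at 5 nM, 862, 825 and 854 at 50 nM, and 826, 848 and 854 at 500 nM. Its libraries were as low at the low doses as at the high ones, with the lowest mean, 786 ± 17 (SD, n = 3), at 5 nM. The log2 fold change was -0.17, -0.27, -0.16 and -0.17 at the 4 doses in rising order, with a standard error of 0.05, and the last 3 passed. The call at 50 nM was lost in 18 of 26 alternatives, and the call at 500 nM was lost without DMSO replicate 2, without DMSO replicate 3 or without 500 nM replicate 1. Without 0.5 nM replicate 2, the value at 0.5 nM was -0.20 and passed.

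**Figure D1:**
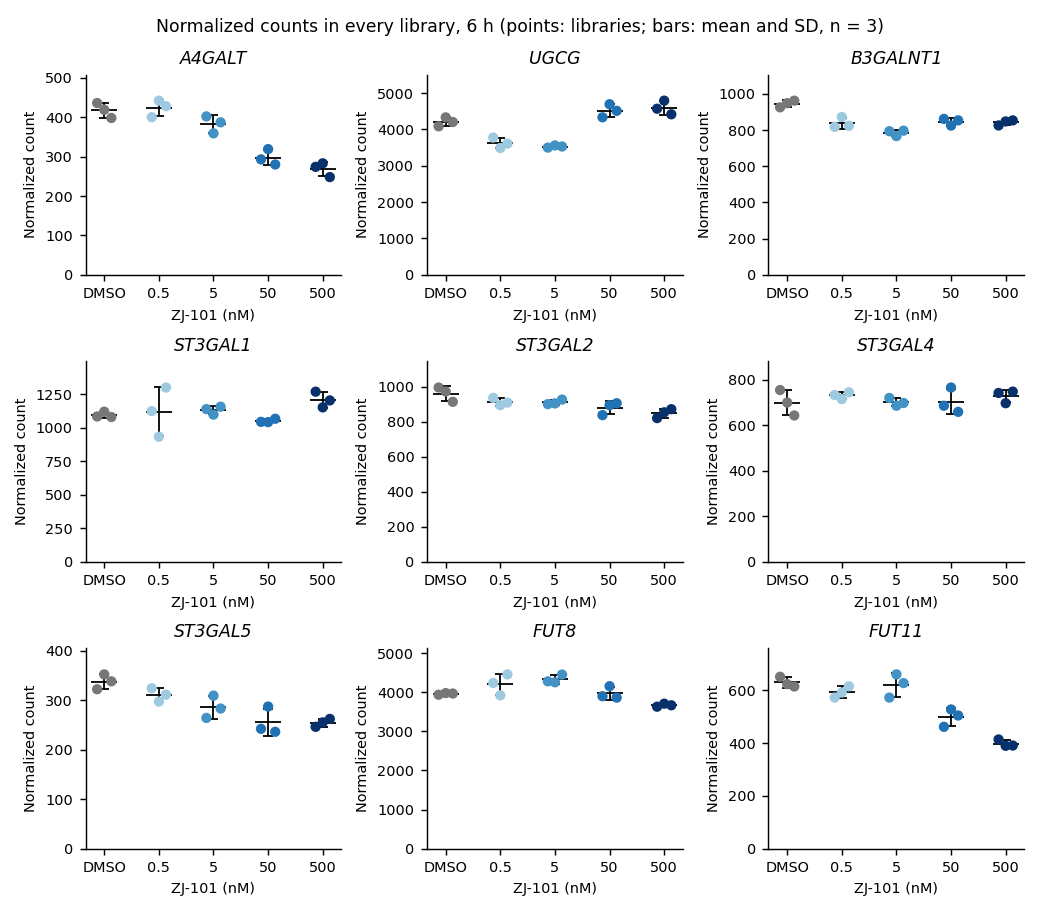
Normalized counts (vertical axes, from 0) of the 9 enzymes by ZJ-101 dose in nM (horizontal axes), with 1 point per library and bars for the mean and SD of 3 libraries. The A4GALT, ST3GAL5 and FUT11 points at 500 nM lie below all DMSO points, the UGCG points dip at 0.5 and 5 nM and stand above DMSO at 50 and 500 nM, and the ST3GAL4 points overlap those of DMSO at each dose.

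ST3GAL5, GM3 synthase, fell at 50 and 500 nM, the doses at which A4GALT fell. It lies on the minus strand of chromosome 2 from 85837120 to 85905199. It had 322, 352 and 338 normalized counts in DMSO, 324, 297 and 311 at 0.5 nM and 264, 309 and 283 at 5 nM. It had 242, 287 and 236 at 50 nM and 246, 255 and 262 at 500 nM. The 3 libraries at each of 5, 50 and 500 nM were below all DMSO libraries, and those at 0.5 nM overlapped them. The log2 fold change was -0.12, -0.24, -0.41 and -0.41 in rising order of dose, with a standard error of 0.08, and those at 50 and 500 nM passed the threshold. From 50 to 500 nM the difference was 0.00, with a 95% interval of -0.17 to 0.18.

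ST3GAL2 lies on the minus strand of chromosome 16 from 70375977 to 70439237. It had 997, 974 and 915 normalized counts in DMSO and 822, 855 and 873 at 500 nM, with no overlap. At 50 nM it had 839, 896 and 907, also all below DMSO. At 0.5 and 5 nM its libraries ranged from 896 to 938 and overlapped DMSO. The log2 fold change of -0.18 ± 0.05 (SE) at 500 nM passed, and those of -0.07, -0.08 and -0.13 at the lower doses did not. The call at 500 nM was lost without DMSO replicate 1, without DMSO replicate 2 or without 500 nM replicate 1.

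ST3GAL1 and ST3GAL4 passed at no dose. ST3GAL1, on chromosome 8, had 1083, 1119 and 1079 normalized counts in DMSO and 1268, 1151 and 1203 at 500 nM. All 500 nM libraries were above DMSO, and the log2 fold change of 0.14 had a 95% interval of -0.03 to 0.31. It passed in 1 of 26 alternatives, the fit of these 2 groups alone. At 50 nM, ST3GAL1 had 1043, 1041 and 1066, all below DMSO, with a log2 fold change of -0.06. At 5 nM it had 1138, 1097 and 1156, which overlap DMSO. At 0.5 nM the ST3GAL1 libraries had 1123, 932 and 1299, and the lowest of these is the library that stood apart. Without it, the log2 fold change at 0.5 nM was 0.14 in place of 0.02, and it did not pass. ST3GAL4, on chromosome 11 from 126355640 to 126440344, had 755, 700 and 643 in DMSO and 742, 697 and 748 at 500 nM. Its 500 nM interval ran from -0.07 to 0.20 on the log2 scale, so changes of that size could not be told from 0.

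The 6 ST3GAL genes together had 409 ± 13.4 normalized counts per kilobase in DMSO (SD, n = 3). The sum was 407 ± 23.6 at 0.5 nM, 402 ± 3.91 at 5 nM, 386 ± 13.2 at 50 nM and 404 ± 8.04 at 500 nM. The libraries at each dose overlapped those of DMSO in range, and the 50 nM libraries ran from 378 to 401 beside 394 to 421 in DMSO, with 2 of 3 below all DMSO libraries. The share of ST3GAL5 in this sum was 5.07% ± 0.323 in DMSO and 3.86% ± 0.156 at 500 nM. The share of ST3GAL2 was 24.2% ± 0.289 and 21.6% ± 0.848, and the share of ST3GAL1 was 30.5% ± 1.02 and 34.0% ± 1.12. The sum and the shares rest on the length of all annotated exons. This is long for ST3GAL5 (16300 bases) and ST3GAL3 (19448 bases), so their shares are low estimates.

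FUT11 fell at 50 and 500 nM, and its log2 fold change at 500 nM differed from that of A4GALT by less than their standard errors. It lies on the plus strand of chromosome 10 from 73772276 to 73780251. It had 652, 624 and 615 normalized counts in DMSO, 573, 592 and 616 at 0.5 nM and 573, 661 and 628 at 5 nM, which overlap. It had 462, 528 and 505 at 50 nM and 414, 390 and 391 at 500 nM. Each of these doses lay below the one before it, with no shared values. The log2 fold change was -0.09, -0.02, -0.34 and -0.66 in rising order of dose, with a standard error of 0.07, and the last 2 passed. It was also the one member that passed in the step from 50 to 500 nM, at -0.32 ± 0.07 (SE), and it passed from 5 to 50 nM at -0.32 as well. Of its exon bases, 11.9% lie inside a gene on the opposite strand, and the strand setting of the counting is not stated.

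FUT8, the core fucosyltransferase, lies on the plus strand of chromosome 14 from 65410592 to 65744121. It had 3942, 3985 and 3973 normalized counts in DMSO. It had 4285, 4261 and 4459 at 5 nM, all above DMSO, and 3635, 3712 and 3671 at 500 nM, all below it. At 0.5 nM it had 4243, 3926 and 4463, and at 50 nM it had 3904, 4161 and 3867, which overlap DMSO. The log2 fold changes of 0.08, 0.13, 0.00 and -0.11 (SE 0.05) did not pass. Without 0.5 nM replicate 2, which had the lowest FUT8 count of its group, the values of 0.13 at 5 nM and -0.11 at 500 nM passed. FUT8-AS1 on the other strand covers 11.8% of its exon bases.

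**Figure D2:**
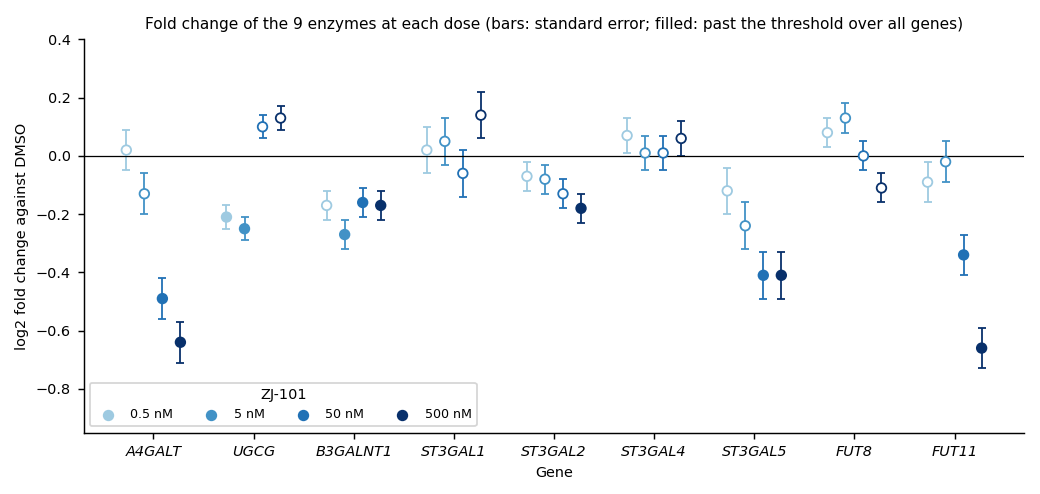
Log2 fold change against DMSO (vertical axis) of each enzyme (horizontal axis) at 4 doses, from light (0.5 nM) to dark (500 nM), with standard errors. Filled points passed the threshold over all tested genes and open points did not. A4GALT and FUT11 reach -0.64 and -0.66 at 500 nM, and UGCG changes sign between 5 and 50 nM.

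Counted over the 9 enzymes, 1 fell past the threshold at 0.5 nM (UGCG), where 0.922% of all tested genes were called downward and 1.17% in either direction. At 5 nM 2 fell (UGCG and B3GALNT1), beside 1.71% of all genes downward and 2.18% in either direction. At 50 nM 4 fell (A4GALT, B3GALNT1, ST3GAL5 and FUT11), beside 3.71% and 6%. At 500 nM 5 fell (these 4 and ST3GAL2), beside 10.1% and 17.8%. From 5 to 50 nM 2 fell (A4GALT and FUT11) and 1 rose (UGCG), beside 5.01% of all genes in either direction, and from 50 to 500 nM FUT11 alone fell, beside 1.8% downward. Against DMSO, none of the 9 rose past the threshold at any dose. Libraries did not overlap DMSO for 2, 4, 7 and 8 of the 9 enzymes in rising order of dose, and for 18.1%, 23.2%, 24.8% and 38.5% of all tested genes. The median log2 fold change of the 9 at 500 nM was -0.17, beside 0.003 over all tested genes. Since the 9 were named with such results known, nothing is read from these counts. Along the dose series, the slope per rank passed downward for A4GALT, FUT11, ST3GAL5 and ST3GAL2, at -0.178, -0.157, -0.110 and -0.041 log2 units per dose step (9.33% of all genes called downward).

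Ratios taken within a library do not depend on its size factor. The ratio of A4GALT to UGCG was 0.0993 ± 0.00651 in DMSO, 0.0658 ± 0.00335 at 50 nM and 0.0584 ± 0.00199 at 500 nM (SD, n = 3), or 58.8% of the DMSO value at the top dose. The ratio of ST3GAL5 to UGCG was 0.0801 ± 0.00126 in DMSO and 0.0554 ± 0.00342 at 500 nM. At 0.5 nM both ratios had higher means than in DMSO, 0.117 and 0.0857, and UGCG was lower there. A4GALT over ST3GAL5, the enzymes that share lactosylceramide, was 1.24 ± 0.0994 in DMSO. It was 1.36 ± 0.127 at 0.5 nM and 1.35 ± 0.183 at 5 nM, 1.17 ± 0.0532 at 50 nM and 1.06 ± 0.0968 at 500 nM. Only at 500 nM were all 3 libraries below the DMSO range. At 5 nM the libraries had 1.53, 1.16 and 1.37 and lay on both sides of the DMSO range, 1.18 to 1.36. B3GALNT1 over A4GALT went from 2.27 ± 0.149 to 3.15 ± 0.254. FUT11 over FUT8 went from 0.159 ± 0.00576 to 0.109 ± 0.00464.

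**Figure D3:**
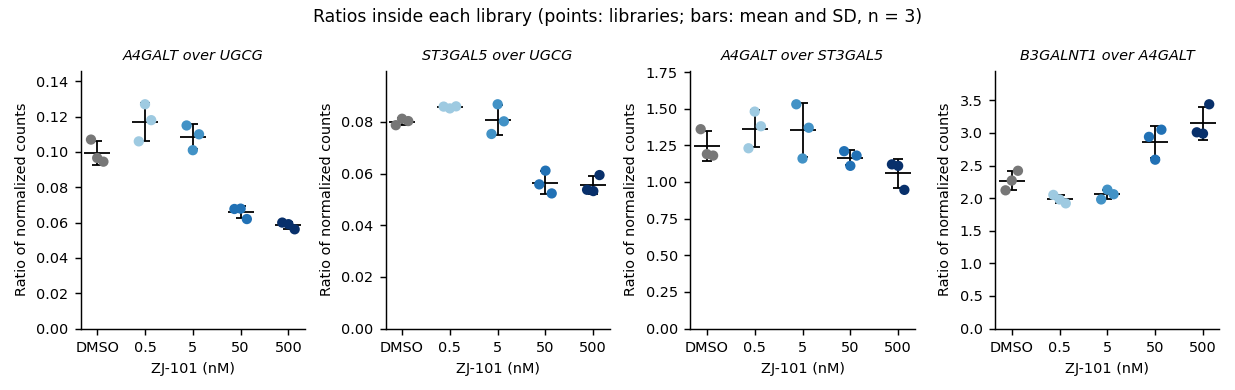
Ratios of normalized counts within each library (vertical axes, from 0) by ZJ-101 dose in nM (horizontal axes), with 1 point per library and bars for the mean and SD of 3 libraries. The ratios of A4GALT and ST3GAL5 to UGCG at 50 and 500 nM lie below all points of DMSO and of the lower doses, and B3GALNT1 over A4GALT lies above them.

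By Pearson's r of log2(normalized count + 1) over the 15 libraries, the genes most like A4GALT were TMED3 (0.99), PRSS23 (0.976) and COL13A1 (0.976). The genes most like UGCG were ACSL3 (0.961), BMP4 (0.939) and LEPROT (0.931). These values describe likeness over the same 5 groups of libraries and carry no test. TMED3, which encodes a p24 cargo receptor of the early secretory pathway, had a mean of 1210 normalized counts in DMSO and 746 at 500 nM. ACSL3, a long-chain acyl-CoA synthetase, had 2773 and 2996.

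Around the 9 enzymes, 91 further genes of the same pathways were listed by family, and 65 of them were tested. These lists, too, were chosen with earlier results of these data known, so their shares are given as a description. At 500 nM 7 of these rose and 17 fell, or 36.9%, where 17.8% of all tested genes were called. At 50 nM 3 rose and 9 fell, or 18.5%, beside 6% of all tested genes. At 5 nM 5 fell, or 7.69%, beside 2.18%, and at 0.5 nM 3 fell, or 4.62%, beside 1.17%. Adjusted p-values below are from limma with Benjamini-Hochberg adjustment over all tested genes, at 500 nM against DMSO. After a log2 fold change, ± gives its standard error, and after normalized counts it gives the SD of 3 libraries.

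Of 12 tested genes of glycosphingolipid synthesis, 3 fell and 0 rose, with a median log2 fold change of 0.01 beside 0.003 over all tested genes. UGT8, which makes galactosylceramide in place of glucosylceramide, fell by 0.64 ± 0.06 on the log2 scale (adjusted p = 5.2e-07), from 571 ± 27.1 to 367 ± 6.7 normalized counts. B4GALT5 and B4GALT6, the lactosylceramide synthases whose product A4GALT and ST3GAL5 share, fell by 0.37 ± 0.06 (adjusted p = 4e-04) and 0.24 ± 0.07 (adjusted p = 0.031). The B4GALT6 call was lost in 6 of 26 alternatives. In the list of ceramide supply and sphingomyelin synthesis, 6 of 18 tested genes rose and 1 fell, with a median of 0.14. Not all genes of this list act before UGCG. SPTLC2, a subunit of serine palmitoyltransferase, rose by 0.34 ± 0.07 (adjusted p = 0.0028), and the desaturase DEGS1 rose by 0.27 ± 0.04 (adjusted p = 1e-04). CERS2, a ceramide synthase with 37.2% of its exon bases inside genes on the other strand, rose by 0.23 ± 0.05 (adjusted p = 0.0064). SPTSSB, a small subunit of serine palmitoyltransferase, fell by 1.07 ± 0.14 (adjusted p = 2.6e-05).

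In glycosphingolipid breakdown, 8 of 13 tested genes fell and 1 rose, with a median of -0.22. GLB1, the lysosomal beta-galactosidase, of whose exon bases 14% lie inside other genes, fell by 0.54 ± 0.06 (adjusted p = 1.7e-06). ARSA, arylsulfatase A, fell by 0.44 ± 0.12 (adjusted p = 0.014) and GALC, galactosylceramidase, by 0.41 ± 0.06 (adjusted p = 1e-04). The ARSA call was lost in 2 of 26 alternatives. NEU3, a membrane sialidase that acts on gangliosides, rose by 0.32 ± 0.11 (adjusted p = 0.043), and this call was lost in 10 of 26 alternatives.

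Among the other sialyltransferases, 2 of 7 tested genes fell and 0 rose. ST8SIA4, which builds polysialic acid, fell by 1.2 ± 0.07 (adjusted p = 6.7e-10), from 418 ± 6.09 to 182 ± 6.76 normalized counts, and ST6GAL1, which adds sialic acid in the alpha-2,6 linkage, fell by 0.63 ± 0.10 (adjusted p = 0.00022). In sialic acid supply and removal, 1 of 7 rose, which was NEU3. Among the other fucosyltransferases, 2 of 5 fell, and both add fucose to proteins. POFUT2 fell by 0.72 ± 0.07 (adjusted p = 8e-07) and POFUT1 by 0.48 ± 0.05 (adjusted p = 6e-07). In fucose supply and removal, 1 of 8 fell, which was FUCA1, the lysosomal fucosidase, by 0.53 ± 0.07 (adjusted p = 1.7e-05).

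**Figure D4:**
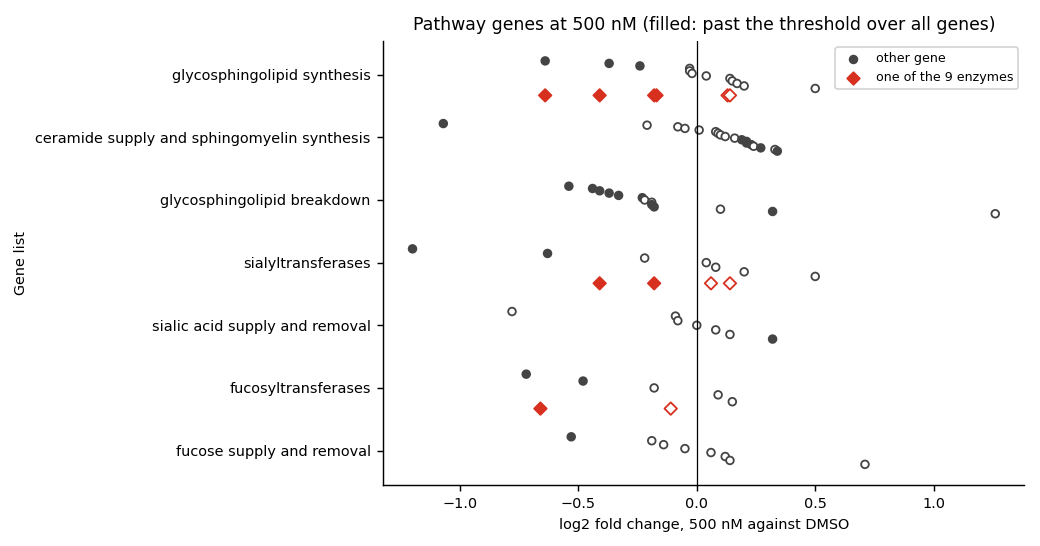
Log2 fold change at 500 nM against DMSO (horizontal axis) of the tested genes in 7 pathway lists (vertical axis), with the 9 enzymes as red diamonds under each list they belong to and other genes as grey circles. Filled symbols passed the threshold over all tested genes, and 8 of 13 genes of glycosphingolipid breakdown are filled on the negative side.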

How the data were processed

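The deposited signal values are normalized counts. Per the methods and labels, the authors sequenced poly-A RNA as read pairs of 150 bases, used HISAT2 for the alignment to hg38 and htseq-count for the reads per gene, and scaled each library by its DESeq2 size factor. Tool versions, strand setting and GENCODE release are not given in the sources used here. Whole reads were recovered from the smallest step of each library (100% of values within 0.001 of a whole number), and 1 line without a gene was left out.

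Genes whose mean over the 15 libraries reached 10 were tested with limma 3.58.1 (R 4.3.3) on log2(value + 1) with a variance trend. All 5 groups were in 1 fit (10 residual degrees of freedom), with Benjamini-Hochberg adjustment over all tested genes and a threshold of 0.05. Fold changes are on the log2(value + 1) scale. A separate fit gave the slope on dose rank. The test was checked on simulated data.

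The members, gene lists and tests were chosen with earlier results of these data known. In each list, up to 3 rises and 3 falls past the threshold at 500 nM are named. Positions and exon lengths are from GENCODE 44. Alternatives were other pseudocounts (0.5 and 5), filters (none, or a mean of at least 50), scalings, a replicate block, edgeR 4.0.16 and DESeq2 1.42.0 on the recovered reads, an adjusted p under 0.1, the slope over treated libraries, 2 groups alone and each library left out.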

Additional observations from a re-analysis of the deposited data

How the results depend on the processing

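The calls of A4GALT, ST3GAL5 and FUT11 at 50 and 500 nM and of UGCG and B3GALNT1 at 5 nM held in all 26 alternatives. None of the fold changes of the 9 enzymes past the threshold changed sign under any alternative. The 0.5 nM call (UGCG) went from 1 to 0 with no filter on low values and to 0 with the 2 groups alone, and there were 2 calls at an adjusted p under 0.1. The count at 0.5 nM was 0 to 2 with 1 library left out, with 0 without each DMSO replicate and 2 without 0.5 nM replicate 2. The 5 calls at 500 nM, all falls, became 8 with the 2 groups alone, 6 falls and 2 rises (UGCG and ST3GAL1). With 1 library left out there were 3 to 7 calls, with 3 without DMSO replicate 2 or 500 nM replicate 1. The 7 calls, without 0.5 nM replicate 2, were 6 falls and 1 rise. The 1 call from 50 to 500 nM (FUT11) became 0 without 50 nM replicate 2, 500 nM replicate 2 or 500 nM replicate 3. Without 0.5 nM replicate 2 there were 2 calls, 1 fall and 1 rise. The other counts stayed within 1.5 times their value. TMM scaling and scaling to an equal total moved the median of all genes at 500 nM to 0.004 and 0.006.

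The labels do not say whether the replicate numbers pair the samples. Deviations of same-numbered libraries from their group means correlated weakly, at -0.09 to 0.10. Of 15 libraries, 9 correlated best with a library of their own number, out of 3 numbers. Whether the samples are paired is thus not settled. With the replicate number as a block, 1, 2, 3 and 5 members passed at the 4 doses in rising order, and 25 other pathway genes passed at 500 nM in place of 24.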

Other observations

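B3GALT4, the galactosyltransferase of the ganglioside branch that makes GM1, and NEU1, the lysosomal sialidase, were listed at 0 in all 15 libraries. Nearly every cell type uses NEU1, and whether these zeros are the level in the cells was not tested.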
